A study of Danio rerio with 6 samples.

Results

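The genes described here are those whose transcripts were sharply lower in zebrafish embryos kept in leflunomide and whose names fall outside a set of excluded gene families. They were chosen by measured values of the same comparison. A probe set, the group of short probes that reports 1 transcript on the array, was taken when its lowest value on 3 DMSO arrays lay at least 1 above its highest value on 3 leflunomide arrays, on the log2 scale of the deposited table. It also had to carry exactly 1 gene symbol, and that symbol could not begin with my, tnn, tpm, ttn, hb, pvalb, ckm, act, slc, cry, mcm, sox, col, hox, atp, zgc, si:, wu, im: or LOC. Of 15502 probe sets other than array controls, 174 passed the gap of 1, which is 1.12%. Among these 174, 53 had no symbol, 6 had several and 39 had an excluded prefix, and the 76 that were left report 75 genes, of 8793 gene symbols on the array. The same gap in the opposite direction, with leflunomide above DMSO, was passed by 31 probe sets of any name.

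Embryos of the Tu strain were kept in the solvent DMSO, or in leflunomide at 6.5 uM, starting at 50% epiboly, during gastrulation, and ending at 24 hours after fertilization. Total RNA of embryos was hybridised to 6 Affymetrix zebrafish arrays, 3 for each group. No transgene, mutant allele or sorted tissue is named in the labels, so the only stated difference between the groups is the agent. The labels do not say how many embryos went into each array or whether the arrays came from separate clutches, so p-values below measure the spread between these arrays, which may be technical. In such bulk RNA, fewer cells of a type and less RNA of a gene per cell cannot be told apart.

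Leflunomide is an antirheumatic drug. Its active form inhibits dihydroorotate dehydrogenase (encoded by dhodh), a mitochondrial enzyme that makes the precursor of all pyrimidine nucleotides, and such nucleotides are needed for making RNA and DNA. The neural crest is a migratory cell population that leaves the dorsal neural tube and gives rise to pigment cells, peripheral neurons and glia, and skeleton of the face. In zebrafish at this age the first pigment cells are differentiating, early neurons are forming, the somites hold contracting muscle fibres and primitive red cells have begun to circulate.

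The values in the table are log2 values from which the median of each probe set over the 6 arrays has been subtracted, so 0 is the middle of the 6 values and not an absence of transcript. Because the chosen probe sets have their 3 DMSO values above their 3 leflunomide values, 0 is the middle of the gap, and the lowest DMSO value and the highest leflunomide value are equal in size in all 76. A value of 1 on one array therefore cannot be compared with a value of 1 for another gene as a level. Only differences between arrays are read below, always as leflunomide minus DMSO, and no test is given for the chosen genes since the comparison itself chose them. A coarse level read from the rounding of the values placed all 76 at a median of 4 or more, above the floor used for the fit, and 6 of them (chka, bhlhe22, aqp1a.1, h1-10, eef2l2 and neurod6b) had at least 1 leflunomide array below 4, where differences may be understated.

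A working description of these genes as lying outside muscle, blood and pigment did not hold. Of the 75 genes, 12 belong to a list of skeletal and cardiac muscle genes, 6 to a list of red blood cell genes and 3 to a list of pigment cell genes, 21 in all, and 54 belong to none of the 3. These lists are not complete. The function groups used below hold 13 muscle, 7 blood and 3 pigment genes, among them spegb, cdh15 and lyz, which are in none of the 3 lists. The excluded prefixes removed myosins, troponins, globins and parvalbumins but not, for instance, desmin, nebulin or the haem enzymes. The genes are therefore called the chosen genes here, and muscle, blood and pigment genes among them are described with the rest. Across the 76 probe sets the mean difference ranged from -5.07 for gch2 to -1.196 for ctbp1l, with a median of -1.90. It was 3 or more in size for 4 (gch2, aqp1a.1, crestin and pabpc4), 2 or more for 29, and under 1.5 for 14.

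**Figure D1:**
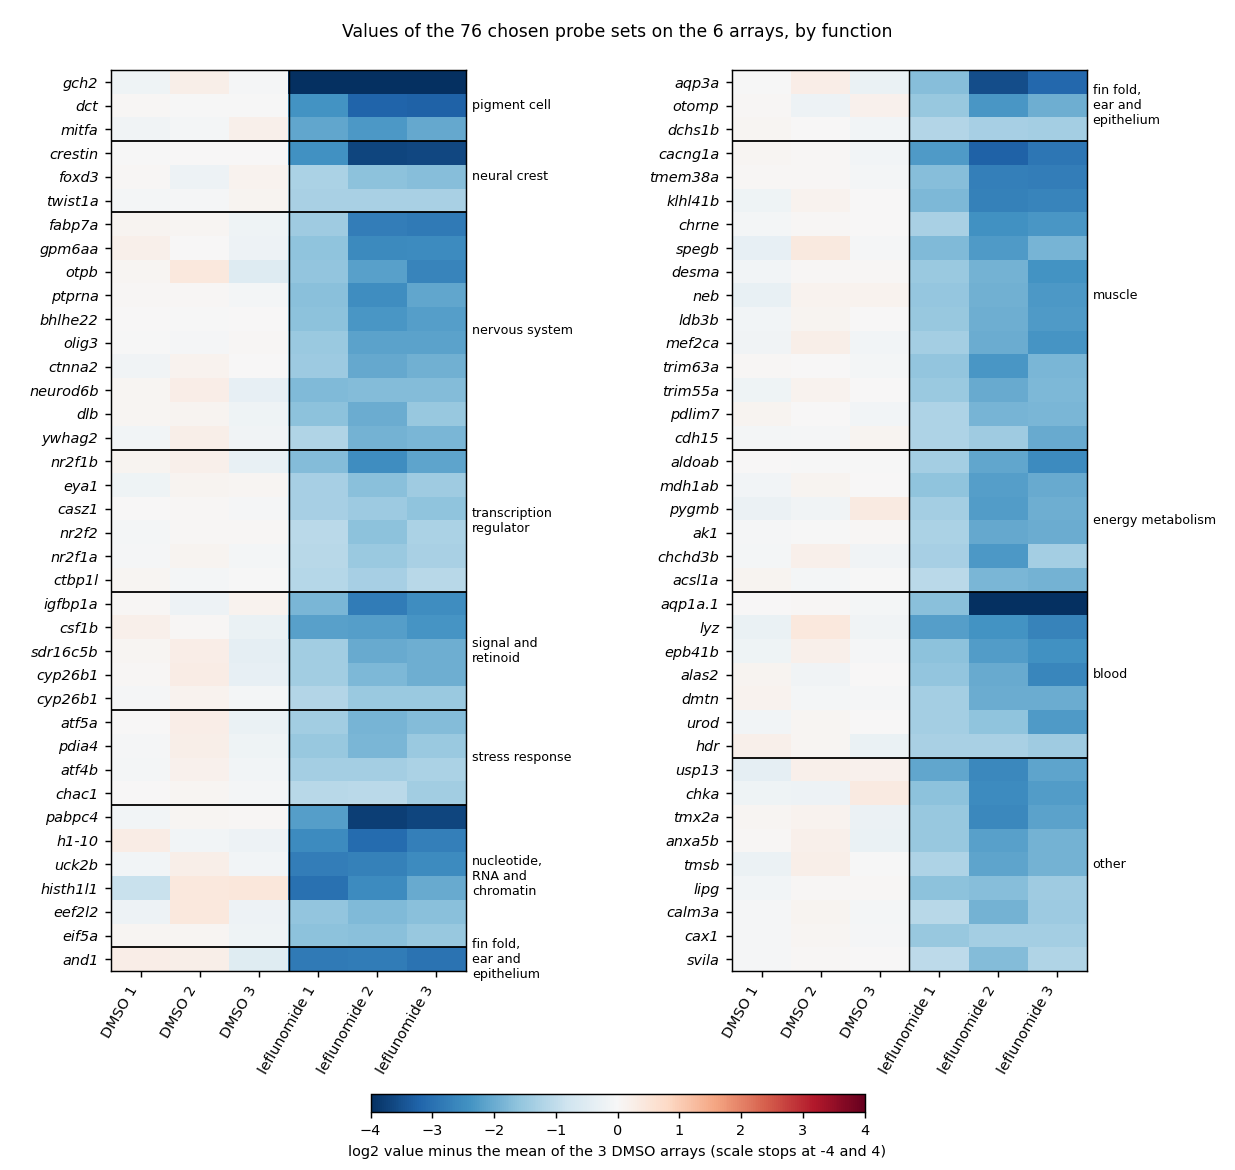
Each row is 1 of the 76 chosen probe sets and each column 1 of the 6 arrays, and the colour is the log2 value minus the mean of the 3 DMSO arrays. Rows are grouped by the function of the gene, and within most groups the first leflunomide column is paler than the other two.

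Pigment cell genes held the largest difference of all. gch2 encodes a GTP cyclohydrolase that feeds the synthesis of the yellow pteridine pigment of xanthophores. Its probe set read 2.34, 2.75 and 2.46 with DMSO and -2.60, -2.73 and -2.34 with leflunomide, arrays 1 to 3 of each group in order, as below. The groups were separated by a gap many times the spread inside either one, and the mean difference was -5.07 (SE 0.17). For chosen probe sets, SE is the standard error from the SDs of the 3 and 3 arrays. For all other probe sets it is that of the limma fit, which is computed otherwise, so the SEs of chosen and other probe sets cannot be compared directly. The gch2 difference is 33.6-fold lower. dct encodes dopachrome tautomerase, an enzyme of melanin synthesis, and gave 1.24, 1.19 and 1.18 with DMSO and -1.18, -1.996 and -2.05 with leflunomide, a difference of -2.94 (SE 0.28). For mitfa, the gene of a transcription factor that directs melanocyte fate, the values were 0.96, 1.01 and 1.302 with DMSO and -0.99, -1.22 and -0.96 with leflunomide, with a difference of -2.15 (SE 0.13). Its duplicate mitfb did not pass the test, with a difference of 0.10 (95% interval -0.17 to 0.38, adjusted p = 0.588 by limma). All 3 leflunomide arrays were low for each of these genes, and the smallest gap between the groups was 1.92, at mitfa.

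Among neural crest genes, crestin had the widest separation. crestin is a zebrafish transcript found across premigratory and migrating crest. Its values were 1.21, 1.23 and 1.24 with DMSO and -1.21, -2.44 and -2.43 with leflunomide. The DMSO arrays were nearly identical, leflunomide array 1 lay between them and the other two leflunomide arrays, and the mean difference was -3.25 (SE 0.41), 9.53-fold lower. foxd3, a forkhead transcription factor gene of early crest, gave 0.79, 0.54 and 0.88 with DMSO and -0.54, -0.91 and -0.98 with leflunomide, a difference of -1.54 (SE 0.17). twist1a, a helix-loop-helix factor gene of crest and head mesenchyme, read 0.61, 0.64 and 0.78 with DMSO and -0.61, -0.62 and -0.62 with leflunomide. These 3 leflunomide values had an SD of 0.0064, the smallest among the 76 probe sets, and the difference was -1.29 (SE 0.05). Of genes outside the selection, the relative twist3 fell by 1.04 (SE 0.15, adjusted p = 0.00392 by limma). sox10, the crest transcription factor gene upstream of mitfa, fell by 0.91 (SE 0.10, adjusted p = 0.00189 by limma), and its groups lay less than 1 apart.

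The nervous system supplied 10 of the 76 probe sets, with differences from -2.35 to -1.64. fabp7a, a fatty acid binding protein gene of radial glia, was the lowest, with 0.92, 0.89 and 0.62 with DMSO and -0.62, -1.95 and -2.03 with leflunomide. Leflunomide array 1 stood far above arrays 2 and 3 there, and the mean difference of -2.35 (SE 0.47) averages over that spread (SD 0.788). gpm6aa, which encodes a membrane glycoprotein of neurites, read 1.11, 0.90 and 0.69 with DMSO and -0.69, -1.65 and -1.61 with leflunomide, a difference of -2.22 (SE 0.33). otpb, the gene of a homeodomain factor of hypothalamic neurons, had the widest DMSO spread of the group, with 1.14, 1.48 and 0.54 with DMSO and -0.54, -1.11 and -1.59 with leflunomide and a difference of -2.13 (SE 0.41). The lowest DMSO array and the highest leflunomide array of otpb still lay 1.07 apart. ptprna encodes a phosphatase-like protein of secretory vesicles and gave 0.93, 0.92 and 0.80 with DMSO and -0.80, -1.62 and -1.21 with leflunomide, a difference of -2.09 (SE 0.24). bhlhe22 and olig3 encode helix-loop-helix factors of neuronal subtypes and of dorsal spinal cord progenitors. For bhlhe22 the values were 0.84, 0.81 and 0.84 with DMSO and -0.81, -1.49 and -1.38 with leflunomide, and for olig3 0.75, 0.72 and 0.81 with DMSO and -0.72, -1.37 and -1.37 with leflunomide, with differences of -2.06 (SE 0.21) and -1.92 (SE 0.22). In both genes the 3 DMSO arrays agreed closely and leflunomide array 1 was the highest of its group.

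The other nervous system genes were ctnna2, which links cadherins to actin in neurons, the helix-loop-helix gene neurod6b, the Delta ligand gene dlb, and ywhag2, which encodes a 14-3-3 protein. Their differences were -1.80 (SE 0.20), -1.75 (SE 0.17), -1.71 (SE 0.16) and -1.64 (SE 0.25). neurod6b read 1.09, 1.28 and 0.71 with DMSO and -0.74, -0.72 and -0.71 with leflunomide, and its leflunomide arrays were almost the same, with an SD of 0.019. On 2 of these arrays it was below a level of 4, whose part in the result was not tested. The relatives neurod1 and neurod4 fell by 1.12 and 0.85 (adjusted p = 0.00772 and 0.00352 by limma), whereas neurod2 gave -0.05 (95% interval -0.36 to 0.25). Delta proteins are Notch ligands that newborn neurons present to their neighbours. Besides dlb, the ligand genes dla, dlc and dld fell, by 0.49, 0.52 and 0.38 (adjusted p = 0.018, 0.025 and 0.039 by limma). A second dlc probe set did not pass (-0.38, adjusted p = 0.084), and the calls of dla, dlc and dld held in 3, 2 and 1 of the 6 fits that leave out 1 array.

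Transcription regulators of no single tissue made up 6 probe sets. The Nr2f genes encode orphan nuclear receptors, also called COUP-TFs, that pattern brain, eye and vessels, and 3 of them were chosen. nr2f1b read 1.12, 1.21 and 0.71 with DMSO and -0.71, -1.48 and -1.09 with leflunomide, a difference of -2.11 (SE 0.27). nr2f1a read 0.56, 0.70 and 0.52 with DMSO and -0.52, -0.91 and -0.72 with leflunomide and nr2f2 0.50, 0.61 and 0.62 with DMSO and -0.50, -1.05 and -0.68 with leflunomide, with differences of -1.303 (SE 0.13) and -1.32 (SE 0.17). All 3 had leflunomide array 2 as their lowest array. The 3 other family members on the array did not pass the limma test, with differences of -0.10 for nr2f5 (95% interval -0.32 to 0.11), 0.11 for nr2f6a (-0.14 to 0.35) and -0.23 for nr2f6b (-0.50 to 0.03). The difference between relatives was not tested. eya1, which encodes a coactivator of ear and placode development, gave 0.57, 0.85 and 0.84 with DMSO and -0.57, -0.91 and -0.66 with leflunomide, a difference of -1.47 (SE 0.14). casz1, a zinc finger factor gene, gave 0.70, 0.74 and 0.64 with DMSO and -0.64, -0.76 and -0.92 with leflunomide, a difference of -1.47 (SE 0.09). ctbp1l closed the list at -1.196 (SE 0.09), the smallest mean difference of the 76.

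Retinoic acid and growth signals were represented by 4 genes. cyp26b1 encodes a cytochrome P450 that breaks down retinoic acid, and 2 of its probe sets were chosen. One read 0.92, 1.16 and 0.53 with DMSO and -0.53, -0.91 and -1.10 with leflunomide and the other 0.56, 0.74 and 0.54 with DMSO and -0.54, -0.86 and -0.86 with leflunomide. Their differences were -1.72 (SE 0.25) and -1.37 (SE 0.12), and both had leflunomide array 1 as the highest of its group. The related enzyme genes cyp26a1 and cyp26c1 did not pass the test, at 0.17 (95% interval -0.22 to 0.57) and -0.20 (-0.62 to 0.22). aldh1a2, which makes retinoic acid, fell by 0.83 (SE 0.15, adjusted p = 0.00891 by limma). igfbp1a encodes an insulin-like growth factor binding protein and read 1.06, 0.82 and 1.17 with DMSO and -0.82, -1.78 and -1.45 with leflunomide, a difference of -2.37 (SE 0.30), whereas its duplicate igfbp1b was at 0.11 (-0.20 to 0.43) and did not pass. csf1b, a ligand gene of the Csf1 receptor that acts in macrophages and xanthophores, read 1.41, 1.26 and 0.96 with DMSO and -0.96, -0.98 and -1.13 with leflunomide, with a difference of -2.24 (SE 0.14). Its 3 leflunomide arrays lay within a narrow band, with an SD of 0.094. sdr16c5b, of a short-chain dehydrogenase family, had a difference of -1.78 (SE 0.27), and its duplicate sdr16c5a one of -0.02 (-0.23 to 0.19).

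The response to amino acid and protein folding stress gave 4 chosen genes. atf4b and atf5a encode bZIP transcription factors that turn on amino acid synthesis and transport genes under stress. atf5a read 0.83, 1.09 and 0.57 with DMSO and -0.57, -1.02 and -0.91 with leflunomide and atf4b 0.63, 0.88 and 0.58 with DMSO and -0.66, -0.68 and -0.58 with leflunomide, with differences of -1.66 (SE 0.20) and -1.33 (SE 0.10). The 3 leflunomide values of atf4b had an SD of 0.053. chac1, a glutathione-degrading enzyme gene and a target of ATF4 in mammals, gave 0.61, 0.65 and 0.50 with DMSO and -0.52, -0.50 and -0.80 with leflunomide, a difference of -1.197 (SE 0.11). pdia4, a protein disulfide isomerase gene of the endoplasmic reticulum, gave 0.78, 1.07 and 0.65 with DMSO and -0.68, -0.98 and -0.65 with leflunomide, a difference of -1.61 (SE 0.16). In this group leflunomide array 1 was the highest in 1 of 4 genes, unlike muscle and blood below. atf4a fell by 1.17 and atf5b by 0.57 (adjusted p = 0.00265 and 0.017 by limma, the latter past the test in 3 of the 6 fits that leave out 1 array), and atf3 was at -0.19 (95% interval -0.59 to 0.21). Among other genes of a list of 47 tested stress and chaperone genes, hsp90aa1.1, a chaperone gene of developing muscle in zebrafish, fell by 1.62 (adjusted p = 0.00253). pck2, a mitochondrial enzyme gene that ATF4 also turns on in mammals, rose by 0.92 (adjusted p = 0.00457).

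Genes of nucleotides, RNA and chromatin numbered 6. uck2b encodes a uridine-cytidine kinase, which salvages pyrimidine nucleosides, a route to nucleotides that does not need the enzyme inhibited by leflunomide. Its values were 1.22, 1.54 and 1.199 with DMSO and -1.46, -1.38 and -1.199 with leflunomide. The 3 leflunomide arrays were similarly low and the difference was -2.66 (SE 0.14), 6.34-fold lower. uckl1b, of the same kinase family, fell by 0.79 (SE 0.11, adjusted p = 0.00421 by limma). The other family members uck2a and uckl1a were at -1.06 and 0.06, both below the level of 4 and not tested. In the pathway of new pyrimidine synthesis, cad and dhodh rose by 0.79 and 0.58 (adjusted p = 0.016 and 0.017 by limma), and dhodh passed the test in 3 of the 6 fits that leave out 1 array and cad in 4. pabpc4 encodes a cytoplasmic poly(A) binding protein and read 1.03, 1.24 and 1.201 with DMSO and -1.03, -2.61 and -2.51 with leflunomide, a difference of -3.21 (SE 0.51). Its leflunomide spread was the third widest of the 76, with array 1 apart from the other two. Probe sets of the relatives pabpc1a and pabpc1b did not pass the test, with differences from -0.69 to 0.31, the widest of which had an interval of -3.57 to 2.202.

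Linker histones bind the DNA between nucleosomes, and 2 of their genes were chosen. h1-10 read 1.65, 1.25 and 1.17 with DMSO and -1.17, -1.71 and -1.38 with leflunomide, a difference of -2.78 (SE 0.22). histh1l1 read 0.57, 1.89 and 1.90 with DMSO and -1.54, -1.05 and -0.57 with leflunomide, and here DMSO array 1 stood far below the other two DMSO arrays. Its difference of -2.51 (SE 0.52) therefore has the widest DMSO spread of the 76 (SD 0.761). The translation factor genes eef2l2 and eif5a had differences of -1.68 (SE 0.21) and -1.61 (SE 0.10). eef2l2 read 0.69, 1.31 and 0.69 with DMSO and -0.69, -0.86 and -0.78 with leflunomide, and a relative, eef2a.1, fell by 1.63 (adjusted p = 0.015 by limma, in 4 of 6 fits without 1 array) while eef2b was at 0.05 (95% interval -0.18 to 0.28).

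Fin fold, ear and epithelium supplied 4 genes. and1 encodes actinodin, a protein of the fibres that stiffen the larval fin fold. It read 1.91, 1.88 and 1.16 with DMSO and -1.19, -1.16 and -1.31 with leflunomide, a difference of -2.87 (SE 0.25), and its leflunomide arrays were alike. aqp3a, a channel gene for water and glycerol in epithelia, read 0.98, 1.26 and 0.71 with DMSO and -0.71, -2.56 and -2.16 with leflunomide, a difference of -2.80 (SE 0.58). otomp, which encodes a matrix protein of the otoliths of the ear, gave 0.91, 0.65 and 1.03 with DMSO and -0.65, -1.46 and -1.09 with leflunomide, a difference of -1.93 (SE 0.26). dchs1b, a large cadherin gene of planar cell polarity, gave 0.72, 0.66 and 0.53 with DMSO and -0.53, -0.69 and -0.71 with leflunomide, a difference of -1.28 (SE 0.08). and1 and dchs1b were even over the leflunomide arrays, whereas aqp3a had an SD of 0.969 there, the second widest of the 76.

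Muscle was the largest group, with 13 genes and differences from -2.79 to -1.55. cacng1a, a subunit gene of the muscle calcium channel, read 1.26, 1.24 and 1.07 with DMSO and -1.07, -2.03 and -1.71 with leflunomide, a difference of -2.79 (SE 0.29). tmem38a encodes a cation channel of the sarcoplasmic reticulum and read 0.93, 0.93 and 0.80 with DMSO and -0.80, -1.86 and -1.87 with leflunomide, a difference of -2.398 (SE 0.36). klhl41b, a gene of sarcomere assembly, read 0.82, 1.12 and 1.00 with DMSO and -0.82, -1.73 and -1.67 with leflunomide, a difference of -2.38 (SE 0.31). In each of these the DMSO arrays agreed and leflunomide array 1 was the least low. chrne, a subunit gene of the acetylcholine receptor at the neuromuscular junction, gave 0.61, 0.74 and 0.70 with DMSO and -0.61, -1.74 and -1.65 with leflunomide, and spegb, a kinase gene of the triad, gave 0.73, 1.43 and 0.99 with DMSO and -0.73, -1.21 and -0.81 with leflunomide. The intermediate filament gene desma gave 0.69, 0.83 and 0.83 with DMSO and -0.69, -1.12 and -1.62 with leflunomide. Their differences were -2.02 (SE 0.36), -1.97 (SE 0.25) and -1.92 (SE 0.27). The other 7 genes were neb, which encodes the thin filament ruler nebulin, the Z-disc genes ldb3b and pdlim7, the transcription factor gene mef2ca, the muscle RING finger ligase genes trim63a and trim55a, and the myoblast cadherin gene cdh15, with differences from -1.92 to -1.55. Leflunomide array 1 was the highest of its group in 13 of 13 muscle genes.

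Relatives of the muscle genes divided by gene. trim55b and trim63b fell by 1.21 and 0.93, and ldb3a by 1.28 (adjusted p = 0.00201, 0.00245 and 0.01 by limma). mef2d fell by 0.76 at 1 tested probe set (adjusted p = 0.022, in 3 of 6 fits without 1 array), and mef2aa was at -0.60 and did not pass (adjusted p = 0.067). tmem38b, which encodes the relative of the channel in other tissues, rose by 0.54 (SE 0.12, adjusted p = 0.018, past the test in 3 of 6 fits without 1 array), while tmem38a was at -2.398. The difference between 2 relatives was not itself tested.

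Energy metabolism gave 6 genes, several with muscle forms. aldoab encodes an aldolase of glycolysis and read 0.69, 0.68 and 0.68 with DMSO and -0.68, -1.40 and -1.82 with leflunomide, a difference of -1.98 (SE 0.34). Its DMSO arrays had an SD of 0.0093, the tightest of the 76, while its leflunomide arrays spread over more than 1 unit. mdh1ab, a cytosolic malate dehydrogenase gene, read 0.74, 0.97 and 0.87 with DMSO and -0.74, -1.35 and -1.15 with leflunomide, a difference of -1.94 (SE 0.19). pygmb, the gene of a muscle glycogen phosphorylase, read 0.56, 0.65 and 1.14 with DMSO and -0.56, -1.46 and -1.16 with leflunomide, a difference of -1.84 (SE 0.32). ak1, which interconverts adenine nucleotides, gave 0.60, 0.65 and 0.70 with DMSO and -0.60, -1.40 and -1.34 with leflunomide, and chchd3b, of the mitochondrial inner membrane, gave 0.66, 0.92 and 0.59 with DMSO and -0.59, -1.58 and -0.64 with leflunomide. acsl1a, which activates long-chain fatty acids, gave 0.67, 0.51 and 0.55 with DMSO and -0.51, -1.24 and -1.33 with leflunomide. These last 3 had differences of -1.77 (SE 0.26), -1.66 (SE 0.34) and -1.61 (SE 0.26), and in 6 of 6 energy genes leflunomide array 1 was the highest of its group. Of the duplicates, aldoaa was at -0.17 (95% interval -0.46 to 0.12) and 2 probe sets of mdh1aa at 0.13 and -0.05, none past the limma test, whereas chchd3a fell by 1.14 (adjusted p = 0.00773 by limma). Another aldolase gene, aldocb, was called lower at both its probe sets, -1.18 and -1.335 (adjusted p = 0.013 and 0.00389 by limma). Those calls held in 4 and 6 of the 6 fits that leave out 1 array.

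Blood genes numbered 7. aqp1a.1 encodes an aquaporin of red cells and endothelium and read 0.90, 0.93 and 0.79 with DMSO and -0.79, -3.51 and -3.15 with leflunomide. This was the widest leflunomide spread of the 76 (SD 1.48), and the mean difference of -3.36 (SE 0.85) combines -1.66 on leflunomide array 1 with -4.38 and -4.02 on arrays 2 and 3. epb41b, a gene of the red cell membrane skeleton, gave 0.73, 1.11 and 0.86 with DMSO and -0.73, -1.34 and -1.52 with leflunomide, a difference of -2.10 (SE 0.27). The haem enzyme genes alas2 and urod gave 0.96, 0.72 and 0.89 with DMSO and -0.72, -1.15 and -1.75 with leflunomide and 0.64, 0.82 and 0.74 with DMSO and -0.64, -0.87 and -1.54 with leflunomide, with differences of -2.06 (SE 0.31) and -1.75 (SE 0.28). alas1, the form of the first enzyme used by other tissues, was at 0.42 (95% interval 0.09 to 0.76, adjusted p = 0.077 by limma) and did not pass. dmtn, of the same membrane skeleton, gave 0.85, 0.64 and 0.66 with DMSO and -0.64, -1.25 and -1.27 with leflunomide, a difference of -1.77 (SE 0.22). lyz encodes lysozyme of myeloid cells and read 0.97, 1.67 and 1.11 with DMSO and -0.97, -1.15 and -1.43 with leflunomide, a difference of -2.43 (SE 0.25), while mpx, the peroxidase gene of neutrophils, rose by 2.03 (SE 0.17, adjusted p = 0.000664 by limma). hdr, a death receptor gene of blood-forming cells, read 0.99, 0.85 and 0.51 with DMSO and -0.51, -0.52 and -0.63 with leflunomide, with leflunomide values of SD 0.065 and a difference of -1.33 (SE 0.15). In all 7 blood genes leflunomide array 1 was the highest of its group.

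A further 9 genes had no shared tissue. usp13, a deubiquitinase gene, read 0.86, 1.42 and 1.40 with DMSO and -0.86, -1.34 and -0.89 with leflunomide, a difference of -2.26 (SE 0.24). chka, which begins phosphatidylcholine synthesis, gave 0.75, 0.72 and 1.27 with DMSO and -0.72, -1.61 and -1.32 with leflunomide, and tmx2a, a thioredoxin-related membrane protein gene, gave 0.94, 1.02 and 0.64 with DMSO and -0.64, -1.73 and -1.26 with leflunomide, with differences of -2.13 (SE 0.31) and -2.07 (SE 0.34). The duplicates chkb and tmx2b did not pass the limma test, chkb at 0.36 (adjusted p = 0.052) and 2 tested probe sets of tmx2b at 0.11 and 0.15. However, second probe sets of chka and tmx2a themselves were at -0.18 (not tested) and -0.22 (did not pass). A split between duplicates therefore cannot be told from a split between probe sets here. The remaining 6 were anxa5b, an annexin gene, tmsb, an actin-sequestering thymosin gene, lipg, an endothelial lipase gene, calm3a, a calmodulin gene, cax1, a cation exchanger gene, and svila, a supervillin gene, with differences from -1.86 to -1.32. calm3b was at -0.07 (95% interval -0.28 to 0.15) where calm3a was at -1.48 (SE 0.23).

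The selection ended inside a continuous range. The 4 probe sets just past the gap of 1 were svila at 1.0006, nr2f2 at 1.0027, chac1 at 1.0072 and tmsb at 1.0167. Just short of it were nova2 at 0.9996, pou3f3b at 0.9971, fam13b at 0.9911 and vim at 0.9901. nova2 and pou3f3b are a neuronal splicing regulator gene and a neural transcription factor gene, and vim encodes the intermediate filament vimentin. Their mean differences, -1.33, -1.64 and -1.67, overlap those of the chosen genes.

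Leflunomide array 1 was the least affected array for most of the chosen genes. It held the highest leflunomide value in 62 of 76 probe sets, against 2 for array 2 and 12 for array 3, and since the rule used the highest value, array 1 mostly set who was chosen. The median difference from the DMSO mean was -1.52 on array 1, -2.07 on array 2 and -2.001 on array 3. Without leflunomide array 1 the rule would have taken 217 probe sets in place of 76. The same array was the highest in 30 of the 39 probe sets with excluded prefixes and 41 of the 53 without a symbol. It was also the highest in 773 of 1185 probe sets that limma called lower with a smaller gap, which is 65.2%, against 29.0% of all 12298 probe sets tested.

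The evenness over arrays differed by gene. The difference on array 1 divided by the mean difference on arrays 2 and 3 had a median of 0.738, from 0.395 at aqp1a.1 to 1.32 at histh1l1. It was above 0.9 in 17 probe sets and under 0.6 in 7. The median ratio was 0.633 in energy metabolism, 0.699 in blood, 0.711 in the nervous system and 0.715 in muscle. It was 0.748 in signal and retinoid genes, 0.757 in neural crest and 0.791 in fin fold, ear and epithelium. It was 0.825 in the other transcription regulators, 0.906 in the stress genes, 0.955 in pigment genes and 0.983 in genes of nucleotides, RNA and chromatin. The groups are small, and their ranges overlapped. The rule also held the ratio up, because array 1 had to lie at least 1 below every DMSO value. This limit is tightest where the mean difference is small, as in the other transcription regulators (median -1.39) and the stress genes (median -1.47). Evenness of groups or genes with small differences can therefore come in part from the rule, which was not tested. The 3 pigment genes ran from 0.738 to 1.013, the 6 of nucleotides, RNA and chromatin from 0.589 to 1.32 and the 10 of the nervous system from 0.513 to 1.017. By this ratio uck2b, gch2, and1, mitfa, atf4b and twist1a were about as low on array 1 as on the others, while crestin, pabpc4 and fabp7a were not. In the whole muscle list of 76 tested genes the medians were -0.85, -1.43 and -1.501 on arrays 1 to 3, and in the neuron list of 89 they were -0.28, -0.71 and -0.67. Their part in the result was not tested, and with absolute levels removed no summed level of these markers can be given.

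**Figure D2:**
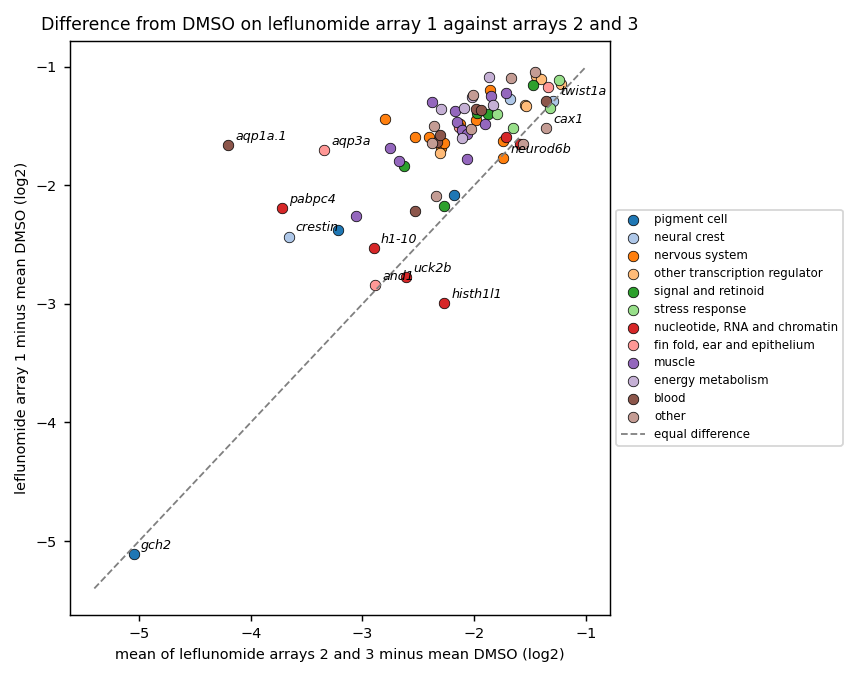
Each point is 1 chosen probe set, with the mean difference from DMSO on leflunomide arrays 2 and 3 on the horizontal axis and that on leflunomide array 1 on the vertical axis, both log2, and the dashed line marks equal differences. Points above the line, among them aqp1a.1, pabpc4 and crestin, were less low on array 1, and 8 probe sets, histh1l1 among them, lay below it.

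Control transcripts separated another array. For the 4 bacterial poly(A) controls, the value at the 3' probe set minus that at the 5' probe set was highest on leflunomide array 3, from 0.54 to 2.00, and at most 0.18 on the 5 other arrays. The hybridisation controls (BioB, BioC, BioDn and CreX) stayed within 0.13 of 0 on all 6 arrays. The zebrafish actin control acta1, the control of an embryonic transcript, separated the groups. Its 3' minus 5' value, on the same centred scale, was -0.48, -0.62 and -0.87 with DMSO and 0.48, 0.64 and 0.63 with leflunomide, so it was higher on all 3 leflunomide arrays. A 3' minus 5' value is read as a sign of RNA quality, and here it moved with the agent. However, acta1 genes are in the muscle list, in which 53 of 76 tested genes fell. The part of RNA quality or of a lower actin transcript in this value was not tested. Its part in the differences of the chosen genes was not tested either. Without leflunomide array 3 the rule would have taken 93 probe sets, and without each of the other 4 arrays apart from leflunomide array 1, from 77 to 97.

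Other probe sets of the chosen genes gave a second reading that the rule did not use directly, although it came from the same arrays. Of the 75 genes, 18 had other probe sets, 26 in number, of which 22 were tested and 14 were called lower and 0 higher by limma (0 also at an unadjusted p under 0.05). Of all 7676 named genes tested, 908 (11.8%) had a probe set called lower and 868 (11.3%) one called higher. Those shares count genes and not probe sets, and several of the 14 calls were of acsl1a alone. The genes had been chosen as fallen on these same arrays, so the 14 calls are not independent support. Other probe sets of pygmb, nr2f2, casz1, acsl1a and svila gave differences close to those of the chosen ones, -1.82, -1.53, -1.58, from -1.40 to -1.18, and -1.11. For gch2 the second probe set fell by 1.35 (SE 0.16, adjusted p = 0.00207 by limma), where the chosen one was lower by 5.07. igfbp1a and dlb fell by 1.43 and 1.04 at their second probe sets (adjusted p = 0.00382 and 0.00251).

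For some chosen genes a second probe set did not pass. eif5a was at 0.05 (95% interval -0.19 to 0.29, adjusted p = 0.795 by limma), hdr at -0.04 (-0.38 to 0.29, adjusted p = 0.861) and tmx2a at -0.22 (-0.63 to 0.20, adjusted p = 0.437). A further probe set each of casz1, cyp26b1 and eef2l2 also did not pass, at -0.17, -0.20 and -0.21. Nor did a second probe set of ctbp1l, at -0.82 (adjusted p = 0.052 by limma), or a tested one of anxa5b, at -0.51 (adjusted p = 0.063). Another probe set each of cyp26b1, eef2l2 and anxa5b was called lower, at -0.65, -0.96 and -0.98 (adjusted p = 0.022, 0.00599 and 0.00356 by limma). Further readings of chka, olig3, chac1 and anxa5b, at -0.18, -0.395, -0.11 and 0.13, came from 1 probe set each below the level of 4 and were not tested. What a probe set measured was less certain for chosen genes that share an identifier stem with probe sets of other symbols or none. The chosen eif5a probe set shares its identifier stem with probe sets of many other genes. Of these, 2 also passed the gap of 1, atp2a1 of the muscle calcium pump (-2.04) and 1 without a symbol (-3.74), and a probe set of lrrn1 came close, at -1.31 with a gap of 0.932. The stem of gpm6aa is shared by 3 probe sets without a symbol that also passed the gap, at -2.402, -1.76 and -1.36. The cyp26b1 probe set at -1.72 shares its stem with a probe set of mllt11, a neuron list gene, at -0.325. For calm3a the stem is shared by a probe set of several symbols, at -1.24, and for ctbp1l by a probe set without a symbol, at -0.32.

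**Figure D3:**
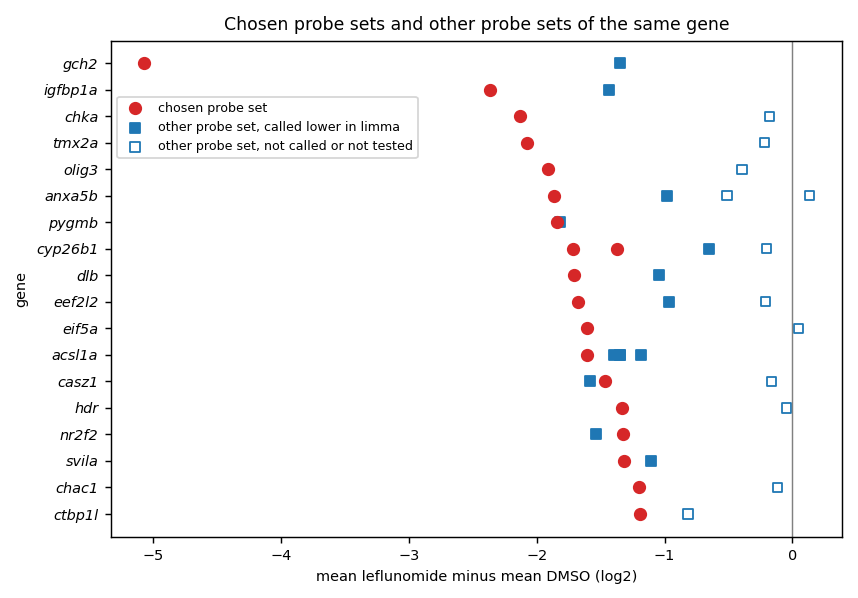
For the 18 chosen genes with other probe sets, round points are the chosen probe sets and squares the others, filled where limma called them lower, against the mean leflunomide minus mean DMSO difference (log2). Most squares lie to the right of the round points, and those of eif5a, hdr and tmx2a lie at 0.05, -0.04 and -0.22.

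Relatives of the chosen genes were compared in 33 families holding 38 of the chosen genes, drawn up after the values were known. Of 53 relatives tested that were not chosen, 21 had a probe set called lower and 3 (aqp12, tmem38b and pdia7) one called higher. Over all named genes tested the shares were 11.8% and 11.3%. Some relatives called lower, such as trim55b, trim63b, ldb3a and chrna1, are muscle list genes. With families drawn up after the values, these counts are no test of relatedness. The relatives called lower included both remaining MuRF genes and gpm6bb (-1.61), chchd3a, ldb3a, atf4a and ptprn2 (-1.21). Of 26 called probe sets of relatives, 14 were called alike in all 6 fits that leave out 1 array. Relatives with values near 0 that did not pass included cyp26a1, mitfb, igfbp1b, sdr16c5a, calm3b and nr2f6a. Whether probe sets of close relatives bind each other's transcripts was not tested.

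**Figure D4:**
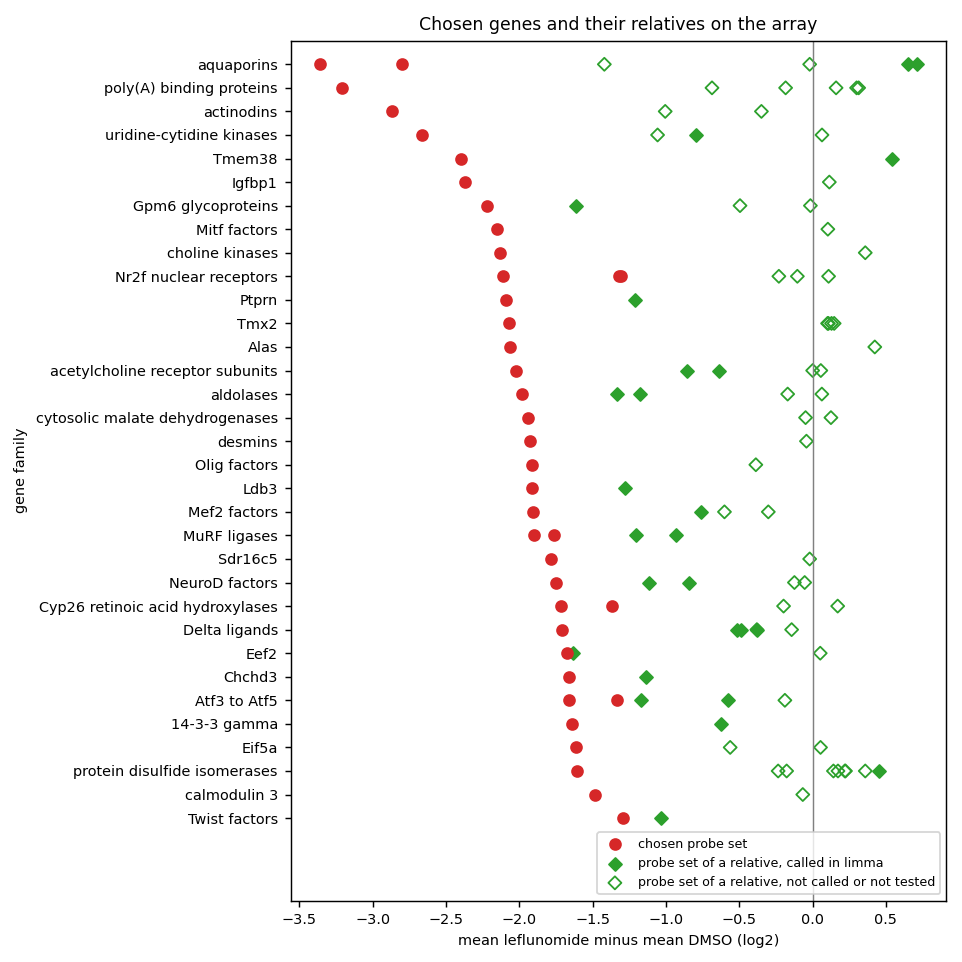
Each row is a gene family, with round points for chosen probe sets and diamonds for probe sets of relatives that were not chosen, filled where limma called them in either direction, against the mean leflunomide minus mean DMSO difference (log2). Diamonds of the MuRF and Ldb3 rows are filled and lie left of 0, those of the Atf and Delta rows are filled in part, while those of the Nr2f, Cyp26 and Mitf rows are open and lie near 0.

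The chosen genes were set in 18 wider gene lists, which hold 42 of the 75. Counts in the lists include chosen genes, which the rule had already taken as fallen. In the muscle list 53 of 76 tested genes fell and 2 rose, with a median difference over probe sets of -1.28. Without its 12 chosen genes, 41 of 64 fell. These 64 still hold genes that passed the same gap but had an excluded prefix, such as pvalb2 (gap 5.51) and tnni2a.4 (gap 4.93). In the red blood cell list 21 of 32 fell and 1 rose, with a median of -0.62. Without its 6 chosen genes, 15 of 26 fell, and these too include genes past the gap with an excluded prefix, such as slc4a1a (gap 5.18) and hbae3 (gap 3.24). Over all 7676 named genes the median was 0.04 and 11.8% fell. In the pigment list 6 of 14 fell, 3 of them chosen, and adsl and gart, of purine synthesis, rose. The calls of adsl and gart held in 1 and 2 of the 6 fits that leave out 1 array, and neither was called without DMSO array 1 or 2 or leflunomide array 2. Of the fallen genes that were not chosen, sox10 (-0.91) was called in all 6 such fits, tspan36 (-0.495) in 3 and rab32a (-0.59) in 1. In the neural crest list 13 of 34 fell, 4 of them chosen, and snai1a rose by 0.80 (adjusted p = 0.00591 by limma). prrx1b, a mesenchymal homeobox gene, and the cadherin gene cdh11 fell by 1.18 and 0.79 (adjusted p = 0.00169 and 0.00551).

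In the neuron list 44 of 89 fell and 1 rose, and 4 of those that fell were chosen. neurog1, which starts neuronal differentiation, fell by 0.95 (adjusted p = 0.00155 by limma), and the tubulin gene tubb5 by 1.19 (adjusted p = 0.00191). The neuron count was 29, 27 and 26 without DMSO array 1, 2 or 3, and the 1 that rose, gata2a, was not called without any of these or leflunomide array 2. Over all probe sets, those called lower went from 1358 to 756, 718 and 710 without DMSO array 1, 2 or 3. Such a drop is therefore not particular to a list. Of the Notch and neural progenitor list 36 of 108 fell, 2 of them chosen, and 2 rose. sox11b was at -2.52 (adjusted p = 5.72e-05 by limma), but it passed the gap of 1 (gap 2.27) and was left out only for its excluded prefix. The Notch targets her2 and her4.5 were at -1.09 and -1.15 (adjusted p = 0.00191 and 0.00194). Of the stress and chaperone list 17 of 47 fell, 4 of them chosen, and 2 rose, and 11 fell without DMSO array 1. In the glycolysis and energy list 21 of 49 fell, 2 of them chosen, and 2 rose, and 13 fell without DMSO array 1 or 2. The 4 fallen genes outside the selection with the lowest adjusted p were ckma (-2.15), gyg1a (-1.31), pgam2 (-1.56) and ckmb (-1.71). Of these, ckma, pgam2 and ckmb are also muscle list genes, so this list and the muscle list are not separate readings. In addition, ckma and ckmb passed the gap of 1 (gaps 1.76 and 1.14) and were left out only for their excluded prefix.

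Nucleotide genes as a list showed shares close to the background in both directions. In the pyrimidine and purine list 5 of 40 fell, 2 of them chosen (uck2b and ak1), and 6 rose, with a median of 0.09. Besides the chosen genes and uckl1b, ak4 and rrm1 fell, by 0.84 and 0.37 (adjusted p = 0.00834 and 0.030 by limma), rrm1 in 2 of the 6 fits that leave out 1 array. The 6 that rose became 10 with the replicate number as a block, and 1 or 2 without DMSO array 1 or 3 or leflunomide array 2. In the DNA replication list 24 of 90 fell and 8 rose, with 1 gene in both counts, and none was chosen. However, mcm5 passed the gap of 1, with a difference of -1.56 (adjusted p = 0.00199 by limma), and was left out only for its excluded prefix. The 24 became 12 to 14, and the 8 became 1 to 3, without any 1 DMSO array or leflunomide array 2. Eye and lens genes fell in 10 of 43, endothelial genes in 10 of 35 (5 or 6 without any 1 DMSO array), leukocyte genes in 5 of 20 and matrix genes in 13 of 48 (7 or 8 without any 1 DMSO array), with 0, 2, 2 and 8 rising. Among those that fell, 1, 2, 1 and 2 were chosen. The eye and lens genes that fell also include cryba4 and crybb1, which passed the gap of 1 (gaps 1.26 and 1.60) and were left out only for their excluded prefix. Of eye and lens genes, 4 were above 0 at an unadjusted p under 0.05. In the lists of Distal-less and arch genes (3 of 26), notochord and tail bud (8 of 57), epidermis (4 of 41) and yolk, liver, gut and kidney (6 of 58), the share that fell was near that of all named genes, and 3, 13, 6 and 10 rose. Those that rose made up 11.5%, 22.8%, 14.6% and 17.2%, against 11.3% of all named genes, so the notochord and tail bud share lay well above it. Without any 1 DMSO array or leflunomide array 2, the 3 Distal-less and arch genes that fell became 1 and the 3 that rose 0 or 1. Without any 1 DMSO array, the 13, 6 and 10 that rose became 7 or 8, 1 or 2, and 4, the 8 matrix genes that rose became 4 or 5, and the 5 leukocyte genes that fell became 2 or 3. Without leflunomide array 2 the 6 and 10 became 2 and 5 and the leukocyte genes 2, and without leflunomide array 1 there were 8 leukocyte genes that fell. Over all probe sets, those called higher went from 1224 to 537, 524 and 423 without DMSO array 1, 2 or 3. Without leflunomide array 2 they went to 625, and those called lower went from 1358 to 831. Drops in the list counts are to be read beside this wider loss of calls.

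**Figure D5:**
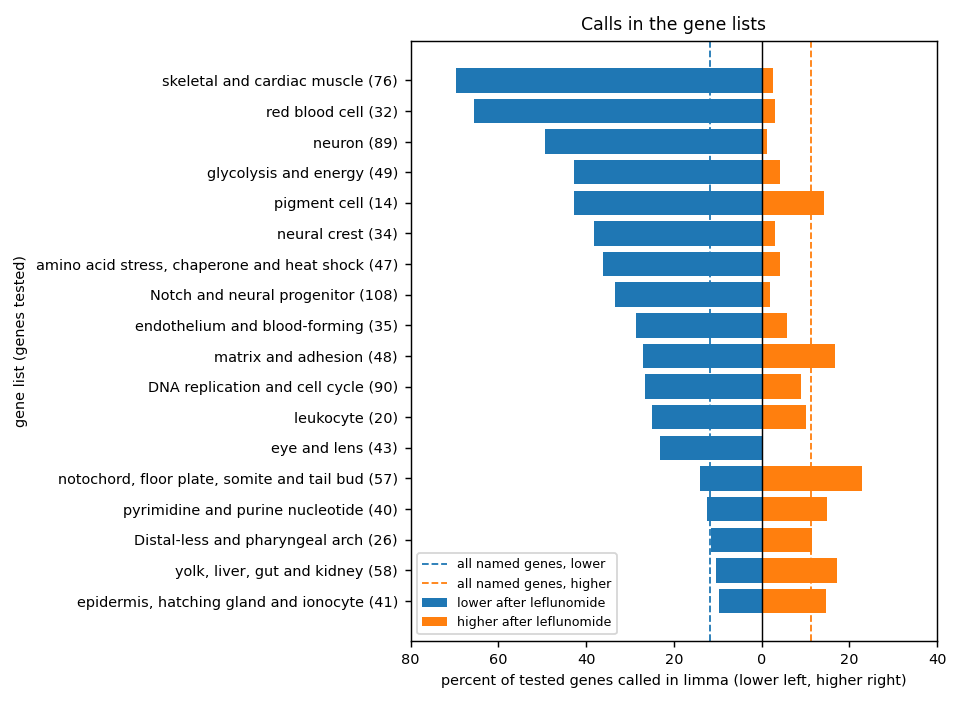
Bars give the percent of tested genes of each list that limma called lower (to the left) or higher (to the right) after leflunomide at an adjusted p under 0.05, and dashed lines give the same over all named genes, 11.8% and 11.3%. The muscle, red blood cell and neuron lists reach furthest left, and the notochord and tail bud list furthest right. Bars include the chosen genes, which the rule had already taken as fallen.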

How the data were processed

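Total RNA was extracted with Trizol and measured on 6 Affymetrix zebrafish arrays. The titles of the samples gave groups and replicate numbers. The deposited table holds log2 values made by the authors with GCRMA (per the submitters' processing notes, without a version). GCRMA corrects background by probe sequence and normalizes by quantiles. The median of each probe set over the 6 arrays is 0 within 5e-07, a step no source used here states, and base 2 is assumed from GCRMA's usual output. Of 15617 probe sets, 115 were controls. A coarse level was read from the single-precision step of values of at least 0.001 in size, on arrays not more than 0.5 below the median, and 12298 probe sets at a level of 4 or more were fitted.

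The platform annotation gave 1 symbol to 10795 probe sets, several to 135 and none to 4572. All 75 chosen genes had the same symbol in the RefSeq table of GRCz12tu. The chosen genes, the gene lists, the function groups and the families of relatives were drawn up with earlier results of these data known. Values on all 6 arrays are given for up to 6 probe sets of each function group with the largest differences, the 4 with the widest and the 4 with the narrowest leflunomide spread, and some others. Genes outside the selection were named among the 4 of a list with the lowest adjusted p, or as relatives chosen after their values were seen, with alas1 and dhodh among these.

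The comparison was fitted in R 4.3.3 with limma 3.58.1 (lmFit, then eBayes), two-sided, with Benjamini-Hochberg adjustment over the 12298 probe sets and a threshold of 0.05. A gene of a list or family counted as called if any of its tested probe sets was. The fit was tested on simulated data. Alternatives covered the level filter, scaling, a robust prior, array weights, a replicate block, leaving out each array, a fold threshold and the gap. Neither batch nor date is in the labels used here, and no sequences or coordinates were used.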

Additional observations from a re-analysis of the deposited data

How the results depend on the processing

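The mean difference of all 76 chosen probe sets kept its direction with the 75th percentiles of the arrays aligned, and in 456 of 456 values that leave out 1 array. The rule fixed this in advance. It set all DMSO values at least 1 above all leflunomide values, and the alignment moved differences by only -0.05. These counts are therefore no support for the differences. Of 560 alternative values of these differences, 540 stayed within the spread of the arrays and 18, all from other probe sets of the same gene, did not. Most of the 560 were the 456 and 76 values just named, from the chosen probe sets themselves, which had little room to move. Only the few from other probe sets were a second reading, and most of those few moved or turned. In 2 the direction turned, at the untested second probe set of anxa5b (0.131) and at that of eif5a (0.046). The cause was not tested.

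The number of chosen probe sets depends on the gap: 300 at 0.5, 19 at 1.5 and 8 at 2. It was 43 at a level of 8 or more, 115 with no prefix excluded, 15 with leflunomide above DMSO, and 77 to 217 without 1 array, the latter without leflunomide array 1. Aligning array medians gave 81, among them all 76, and aligning 75th percentiles gave 78, with 73 shared. A replicate block, here a difference of at least 1 within each replicate number, gave 112.

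limma called 1358 probe sets lower and 1224 higher. The counts were 524 and 623 at a level of 8 or more, where fewer probe sets were tested, 497 and 136 at a difference of at least 2-fold, and 1284 and 1225 with the replicate block. They were 710 to 1436 and 423 to 1356 without 1 array, lowest without a DMSO array (756 and 537 without DMSO array 1, 718 and 524 without array 2, 710 and 423 without array 3) and also low without leflunomide array 2 (831 and 625). Reading the rounding step over all 6 arrays, chosen after seeing the data, gave 1320 and 1218. Aligned medians moved all differences by -0.02 and aligned 75th percentiles by -0.05. Same-numbered arrays correlated at 0.333, 0.191 and 0.073 in their deviations from the group means. Every array correlated best with its own number, a hint of pairing from the data, but 1 of the 3 values was below 0.1 and the labels name nothing shared by a number, so the arrays were not treated as pairs. A level filter of 8 cut the neuron genes that fell from 44 to 11 and the red blood cell genes from 21 to 12. It also left 3533 of the 12298 probe sets and cut all those called lower from 1358 to 524. How many genes of these lists were still tested is not given here, so their shares at that level cannot be compared. The arrays' number and the removed absolute level limit what can be read from low probe sets.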

Other observations

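Probe sets that passed the same gap but could not be assigned to 1 gene numbered 53 without a symbol and 6 with several. Those without a symbol had a median difference of -1.81 and reached -3.74, close in size to the chosen genes, and those with several symbols had a median of -3.997 and reached -5.88. All 6 of the latter had leflunomide array 1 as the highest of its group. The 39 probe sets set aside by prefix had a larger median difference, -2.61, and reached -6.83. By prefix, 7 began with my, 5 with tnn, 5 with slc, 4 with hb and 3 with pvalb.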
